A study of Mus musculus with 28 samples.

Results

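Low oxygen was compared with ambient oxygen in proliferating O9-1 cells, a mouse cranial neural crest cell line that can be kept dividing or turned towards skeletal and other lineages in culture. The comparison used 7 of the 28 RNA sequencing libraries of the series and was described across all 14156 genes that passed a filter on low counts, of 54429 genes in the count table. The hypoxic group held 3 libraries of cells at 0.5% O2 and the normoxic group 4 libraries of cells at 21% O2. Both were in the medium that keeps the line dividing, which was conditioned on STO fibroblasts and held 15% fetal calf serum, 25 ng/ml bFGF and 5 ng/ml LIF. How long the hypoxic cells had been at 0.5% O2 was not given in the sources used here. No genotype or drug set the groups apart. All libraries came from 1 cell line, and nothing stated that replicates were separate cultures, so p-values measure the spread between these libraries, which may be technical. The chondrocyte and osteoblast cultures of the same line, used for contrast at the end, held 3 hypoxic and 4 normoxic libraries each. Osteoblast cultures had 10 days of osteogenic medium with 10% serum, 100 ng/ml BMP-2, dexamethasone and beta-glycerophosphate. Chondrocyte cultures had 3 days of that medium and then 7 days as a micro mass on Matrigel in chondrogenic medium with 5% serum, 50 ng/ml BMP-2, 10 ng/ml TGF-beta3, dexamethasone and an insulin, transferrin and selenium supplement.

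The 7 libraries held 23894399 to 64693346 reads assigned to genes, the deepest being normoxic replicate 2. Normoxic replicate 4 stood apart from the other normoxic libraries: its counts differed from theirs by a chi-square of 17.0 to 20.7 per degree of freedom, against 4.95 to 5.56 among the other normoxic pairs. Main results are therefore also given without it. Among hypoxic libraries the chi-square was 3.99 between replicates 1 and 2, and 8.42 and 8.6 from these to replicate 3. Reads from mitochondrially encoded protein genes made up 0.484 to 0.591% of normoxic and 0.677 to 0.744% of hypoxic libraries, mitochondrial ribosomal RNA 0.0252 to 0.0268% and 0.0817 to 0.0889%, and the 10 most abundant genes 5.05 to 5.54% and 7.13 to 7.31%. Of 34 neural crest markers, 21 passed the filter and 7 were at 0 reads in all 7 libraries, among them Sox10, Foxd3, Ngfr and Pax7, defining genes of early or migratory neural crest. Of the markers that were expressed, Sox9 had 109 ± 20.2, Snai1 21.6 ± 1.45 and Cd44 656 ± 19.7 CPM (counts per 1000000, mean ± SD of the 4 normoxic libraries).

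Cells sense oxygen through prolyl hydroxylases (Egln1 to Egln3), which use it to mark the alpha subunits of hypoxia-inducible factors (HIFs) for destruction by a complex that contains Vhl. When oxygen is scarce the alpha subunits persist, pair with Arnt and bind DNA at a short core motif, and the genes they drive shift the cell from respiration to glycolysis, take up glucose, export acid and call for blood vessels. The neural crest forms much of the skull and face and arises in an embryo whose tissues are poorly oxygenated. Messenger RNA reports on the targets of this pathway and not on HIF protein, which hydroxylation controls.

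The HIF core motif was looked for in RefSeq promoters (GRCm38.p6, the build of the deposited coordinates) of the genes that carried the response, to show which of them hold it near the start. The windows run from 250 bases before to 50 bases after the annotated start, on the gene's strand. Capitals mark ACGTG on either strand, so that its reverse complement appears as CACGT.
Car9 (chr4:43506776-43507075, plus strand): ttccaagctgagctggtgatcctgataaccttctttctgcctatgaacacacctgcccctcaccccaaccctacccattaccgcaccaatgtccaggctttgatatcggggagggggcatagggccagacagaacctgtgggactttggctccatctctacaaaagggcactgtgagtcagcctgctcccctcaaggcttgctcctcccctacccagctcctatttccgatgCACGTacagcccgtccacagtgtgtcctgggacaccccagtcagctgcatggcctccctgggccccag
Bnip3 (chr7:138909457-138909756, minus strand): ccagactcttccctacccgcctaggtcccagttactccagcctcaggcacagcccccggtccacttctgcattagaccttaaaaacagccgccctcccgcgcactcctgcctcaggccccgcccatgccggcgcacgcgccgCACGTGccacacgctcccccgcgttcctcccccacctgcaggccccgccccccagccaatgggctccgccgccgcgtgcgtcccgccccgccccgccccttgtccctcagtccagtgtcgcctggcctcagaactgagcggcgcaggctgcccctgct
Mgarp (chr3:51396498-51396797, minus strand): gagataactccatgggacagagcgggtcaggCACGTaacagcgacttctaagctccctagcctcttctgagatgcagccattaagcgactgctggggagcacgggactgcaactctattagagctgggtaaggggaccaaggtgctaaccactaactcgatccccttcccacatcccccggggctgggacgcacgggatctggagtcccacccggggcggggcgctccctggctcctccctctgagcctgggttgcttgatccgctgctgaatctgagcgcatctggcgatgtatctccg
Ankrd37 (chr8:45999801-46000100, minus strand): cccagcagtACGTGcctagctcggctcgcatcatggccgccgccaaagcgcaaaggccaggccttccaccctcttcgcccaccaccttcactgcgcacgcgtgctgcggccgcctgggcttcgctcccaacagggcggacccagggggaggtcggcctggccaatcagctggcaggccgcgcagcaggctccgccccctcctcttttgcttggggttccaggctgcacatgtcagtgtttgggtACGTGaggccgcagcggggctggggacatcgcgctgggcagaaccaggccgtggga
Ero1l (chr14:45318523-45318822, minus strand): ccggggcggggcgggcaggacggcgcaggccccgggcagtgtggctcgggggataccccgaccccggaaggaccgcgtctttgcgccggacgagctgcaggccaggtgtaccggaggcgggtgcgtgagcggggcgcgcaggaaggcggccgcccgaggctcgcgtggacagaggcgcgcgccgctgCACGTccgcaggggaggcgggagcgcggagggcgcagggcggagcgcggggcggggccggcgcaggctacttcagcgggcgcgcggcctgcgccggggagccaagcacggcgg
Egln3 (chr12:54203825-54204124, minus strand): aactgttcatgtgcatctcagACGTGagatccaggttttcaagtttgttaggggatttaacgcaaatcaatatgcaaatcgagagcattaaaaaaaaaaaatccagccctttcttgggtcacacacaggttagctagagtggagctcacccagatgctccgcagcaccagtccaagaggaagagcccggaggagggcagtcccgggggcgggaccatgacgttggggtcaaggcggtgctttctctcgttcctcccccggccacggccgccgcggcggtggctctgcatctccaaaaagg
Adm (chr7:110627407-110627706, plus strand): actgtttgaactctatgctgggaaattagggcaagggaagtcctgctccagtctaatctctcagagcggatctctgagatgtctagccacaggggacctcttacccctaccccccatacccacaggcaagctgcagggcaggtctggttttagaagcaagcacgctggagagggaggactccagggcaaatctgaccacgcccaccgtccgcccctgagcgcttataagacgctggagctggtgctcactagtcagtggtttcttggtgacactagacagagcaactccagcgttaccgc
Counted from the start as +1, the match began at -18 in Car9, at -219 in Mgarp, at -63 in Ero1l (Ero1a in RefSeq) and at -229 in Egln3. Bnip3 held the overlapping pair of matches that make up a single CACGTG, at -108 and -107, and Ankrd37 held matches at -241 and -6. The Adm window held no ACGTG but 2 copies of GCGTG, a looser form of the core. Of 35 textbook hypoxia response genes, 29 matched a RefSeq promoter entry, and 22 of those (75.9%) held ACGTG in at least 1 window, against 2939 of the 9921 tested genes that matched (29.6%) and 5886 of all 27025 genes with a promoter (21.8%). Genes called at least 8-fold higher held it in 40.2% of 132 matched and those at least 2-fold higher in 30.8% of 1135, against 35.4% of 683 matched genes called at least 2-fold lower. Most of the genes that changed by these amounts had no match in their windows. By window, 60% of the list's 40 promoters held ACGTG against 25.5% of promoters of tested genes and 19.6% of all 32851 promoters of the same length. For GCGTG these shares were 60, 50.6 and 32.4%. A match describes these letters only, and a window without one says nothing of binding elsewhere.

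The 3 genes that mark the response differed between the groups by far more than the spread within either. Mgarp, which encodes a mitochondrial membrane protein of steroidogenic and oxygen-starved cells (chromosome 3, 51388412 to 51396738, minus strand, mm10), had 0.279, 0.288, 0.1899 and 0.611 CPM in the 4 normoxic libraries and 89.1, 82.9 and 102 CPM in the 3 hypoxic ones. It was almost silent at 21% O2 and no library overlapped the other group. Its log2 fold change, hypoxic minus normoxic, was 8.12 (SE 0.16; edgeR quasi-likelihood test, Benjamini-Hochberg adjusted p = 3.54e-13), a 279-fold rise. Bnip3, a mitophagy receptor on the outer mitochondrial membrane (chromosome 7, 138890836 to 138909519, minus strand), had 37.6, 38.6, 39.2 and 38.02 CPM at 21% O2 and 752, 759 and 829.6 CPM at 0.5% O2. The normoxic libraries lay within 2 CPM of each other, and the change was 4.35 (SE 0.05; edgeR adjusted p = 3.00e-15). Car9, a cell surface carbonic anhydrase that handles exported acid (chromosome 4, 43506966 to 43513729, plus strand), had only 7 reads over the 4 normoxic libraries and 359 over the 3 hypoxic ones. Per library that was 0.0929, 0.0606, 0 and 0 against 3.99, 4.76 and 5.89 CPM, and the ratio of depth-adjusted counts was 103.7 (95% interval 49.8 to 259.9, exact, for counting error only).

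Of the 14156 genes tested, 9261 (65.4%) passed an adjusted p of 0.05 in edgeR's quasi-likelihood test with Benjamini-Hochberg adjustment and are referred to as called. Of these, 4687 (33.1% of those tested) were higher and 4574 (32.3%) lower at 0.5% O2. At least 2-fold, 1647 (11.6%) rose and 981 (6.93%) fell. The sides differed in reach: 528 genes rose but 90 fell at least 4-fold, and 193 rose but 9 fell at least 8-fold. The median log2 change of all tested genes was 0.01. Of all tested genes, 4666 were higher in every hypoxic than in every normoxic library and 4571 lower, so that lack of overlap between the groups was common. Without normoxic replicate 4, 9945 genes were called. All 9261 called genes were also in the authors' deposited table for this contrast with the same sign, and 9020 of them had a p-value under 0.05 there. With 65.4% of genes called, a share of members called says little by itself, and lists are read below by the direction, the size and the median of their changes.

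**Figure D1:**
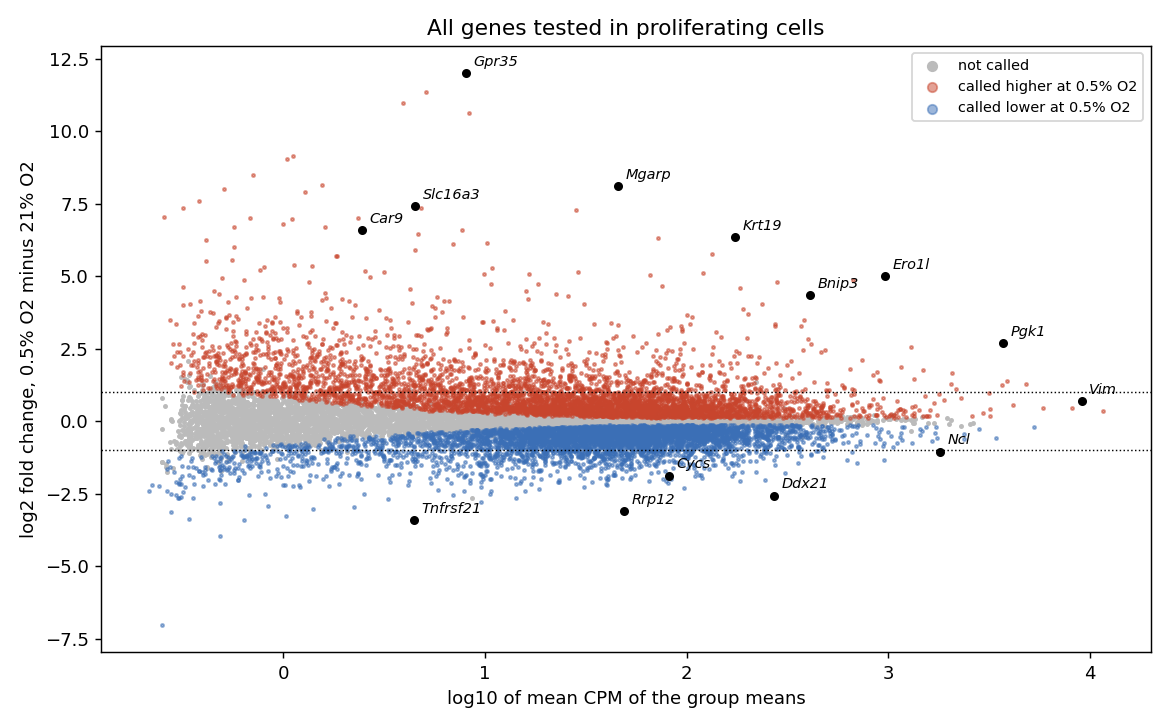
Each point is 1 of the 14156 tested genes, placed by its mean level (log10 CPM, horizontal) and its log2 fold change at 0.5% against 21% O2 (vertical); coloured points passed the test, dotted lines mark a 2-fold change, and 14 genes are labelled. Rises reach much further from 0 than falls, with 193 genes up and 9 down at least 8-fold.

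The genes with the largest rises included several with no textbook place in the oxygen response. Among called genes without overlap and with at least 10 mean counts in both groups, the next after Mgarp was Smtnl2, a smoothelin-like actin-associated protein, which went from 0.341, 0.454, 0.304 and 0.204 to 58.3, 58.5 and 51.5 CPM (155-fold). Krt19, a keratin of simple epithelia, went from 4.06, 3.56, 4.98 and 4.64 to 339, 341 and 349.9 CPM, an 81.9-fold rise (edgeR adjusted p = 5.69e-15). Vwa1, an extracellular matrix protein of cartilage and basement membranes, went from 1.61, 2.23, 1.595 and 1.22 to 136, 138 and 151 CPM (79.8-fold). In all 3 the lowest hypoxic library was more than 10 times the highest normoxic one. Prelid2, Mpp2, Kif21b (a kinesin) and Ceacam1 (a cell adhesion molecule) rose 71.7, 39.5, 33.8 and 33.7-fold, each from under 2 CPM. The remaining largest rises were known HIF targets or glycolytic genes: Aldoc, Slc2a3, Adm, Ankrd37, Ero1l, Ndrg1 and Egln3. Ero1l, which drives disulphide bond formation in the endoplasmic reticulum and uses oxygen to do so, was the most abundant of these, with 55.3, 56.3, 57.96 and 60.9 CPM at 21% and 1719.7, 1736 and 2143 CPM at 0.5% O2.

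Some genes were detected at 0.5% O2 alone. Gpr35, a G protein-coupled receptor, had 0 reads in each normoxic library and 16.8, 15.9 and 15.6 CPM in the hypoxic ones, at least 801-fold higher against a floor of 3 reads over the normoxic group. Kbtbd11 (a BTB and Kelch repeat protein) and Ppp1r3b (a subunit that brings protein phosphatase 1 to glycogen) were likewise at 0 reads in normoxia, and were at least 509-fold and 392-fold higher at 10.2 ± 0.631 and 7.85 ± 1.12 CPM (mean ± SD, n = 3). Pygl, the liver form of glycogen phosphorylase, had 1 read in all 4 normoxic libraries and 15.3, 15.7 and 19.2 CPM in hypoxia, a count ratio of 2494 with a wide 95% interval of 447 to 98600. Ppp1r3c, another glycogen-targeting subunit, also had 1 normoxic read, and a ratio of 459 (81.6 to 18217). Pygl, Ppp1r3b and Ppp1r3c all act on glycogen.

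**Figure D2:**
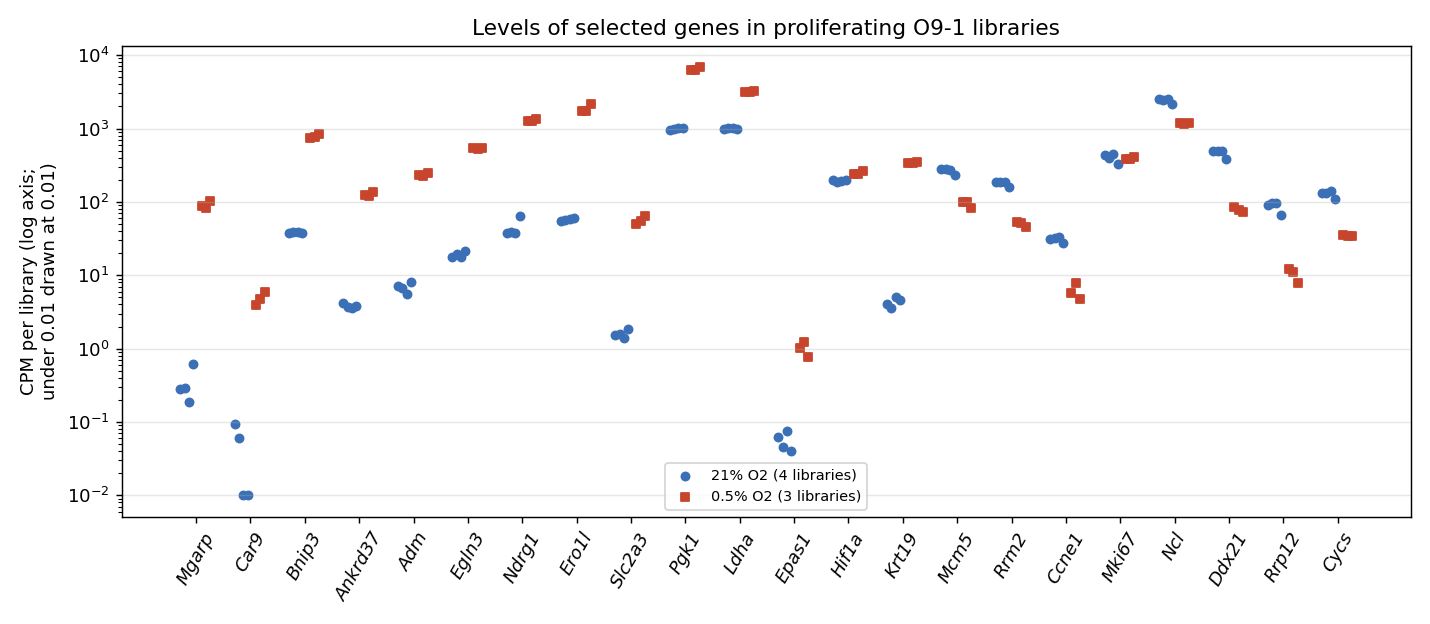
CPM of 22 genes in each library on a log axis, with normoxic and hypoxic libraries of proliferating cells as separate points; values under 0.01 CPM are drawn at 0.01. The hypoxia response genes shown lie higher in every hypoxic than in every normoxic library, and Rrp12, Ddx21 and Ccne1 lie lower in every hypoxic library.

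Of the 35 hypoxia response genes, 33 rose, all of them at least 2-fold, and none fell (33.1% of all genes tested rose). Their median log2 change was 2.88 against 0.01 over all genes, and the change ran from 0.14 to 8.12. Their summed level was 1855 to 1894 CPM in the normoxic and 13517 to 14504 CPM in the hypoxic libraries. Adm, the vasodilator peptide adrenomedullin, went from 7.03, 6.65, 5.55 and 8.14 to 231, 228 and 244 CPM (34.4-fold). Ndrg1, a growth-arrest and stress gene, went from 37.4, 38.3, 37.5 and 64.7 to 1265, 1262 and 1368 CPM, with normoxic replicate 4 above the other 3. Its log2 change was 4.88 with that library and 5.09 without it. Stc2 (stanniocalcin 2) and Pfkfb4, a regulator of glycolytic flux, were the 2 that did not pass: Pfkfb4 had 4.03, 4.71, 4.71 and 7.53 against 6.46, 5.49 and 6.66 CPM, with overlapping groups, and passed (0.45) without normoxic replicate 4. Stc2 passed without normoxic replicate 3 (0.16) or hypoxic replicate 3 (0.17). In bulk RNA a change in every cell and a change in the share of cells that respond cannot be told apart.

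Among regulators of HIF, both hydroxylases that HIF induces and Vhl rose. Of 14 HIF subunits and oxygen sensors tested, 9 rose and 1 fell, with a median of 0.39, against 8 and 3 without normoxic replicate 4. Egln3, a prolyl hydroxylase that HIF itself induces, went from 17.5, 19.6, 17.5 and 21.7 to 541, 529 and 549 CPM (28.3-fold), and Egln1, the main oxygen sensor among them, from 118, 119, 115 and 96.8 to 709, 732 and 695 CPM (6.34-fold). Egln2 was not called, at 44.8 ± 3.73 against 43.96 ± 3.603 CPM. Vhl, the adaptor that captures hydroxylated HIF, rose 3.18-fold, from 21.2 ± 1.08 to 67.3 ± 3.48 CPM. The Hif1a transcript rose slightly, from 195 ± 7.403 CPM (mean ± SD, n = 4) to 241, 239.97 and 263 CPM (1.27-fold), and Arnt 1.36-fold. Epas1, which encodes the alternative alpha subunit HIF-2 alpha, was near the limit of detection, with 8 reads in the 4 normoxic libraries and 1.01 ± 0.236 CPM in hypoxia, a count ratio of 18.7 (9.02 to 44.9). Per kilobase of exon, the hypoxic level of Hif1a was 42.04 CPM and that of Epas1 0.1802 CPM. Hif1an, the asparagine hydroxylase that blocks HIF's activation domain, was not called (-0.07). Arnt2 fell by 0.50 (52.2, 53, 51.8 and 81.1 against 41.7, 39.7 and 44.7 CPM, normoxic replicate 4 being the highest), and its log2 change was -0.33 and called without that library. The Arnt2 call was lost without any 1 of the 3 hypoxic libraries (-0.54 to -0.46) and with no filter on low counts (-0.54).

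Glycolysis genes rose almost throughout. Of 24 glycolysis and lactate genes, 21 rose, 19 of them at least 2-fold, and 1 fell, with a median of 1.98. Among glucose transporters, Slc2a1 (GLUT1) went from 94.4, 98.2, 93.3 and 103 to 703, 708 and 697 CPM, 7.22-fold, and Slc2a3 (GLUT3) from 1.55, 1.56, 1.41 and 1.87 to 49.9, 55.6 and 63.2 CPM, 35.4-fold. Slc2a3 had the larger ratio, but per kilobase of exon its hypoxic level of 7.76 CPM was below the 27.7 CPM that Slc2a1 had in normoxia. The hexokinases Hk1 and Hk2, which trap glucose in the cell, rose 5.52 and 5.07-fold. Pgk1, the first ATP-yielding enzyme of the pathway, had the largest gain in CPM of any gene named, from 953, 995, 1015 and 1006 to 6241, 6255 and 6819 CPM. Pkm and Ldha, which make pyruvate and lactate, rose 2.43 and 3.15-fold from already high levels of 2812 ± 88.8 and 1002 ± 25.4 CPM. Aldoc, the brain-type aldolase, rose 55.01-fold from 4.18, 3.65, 3.53 and 8.67 CPM to 253, 251 and 283 CPM, the log2 change being 6.10 without normoxic replicate 4. Gapdh had 72.3, 159, 197 and 68.7 against 201, 234 and 516 CPM and was not called in edgeR, but was in DESeq2 (1.34; adjusted p = 0.035). Aldoa, counted among the rises, was not called without normoxic replicate 3 (0.65) or hypoxic replicate 3 (0.56). Both genes have many near-identical copies in the genome, which may affect their counts, though this was not tested. The values of both are uncertain.

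The lactate exporters went opposite ways. Slc16a3 (MCT4), the exporter of strongly glycolytic cells, had 0.03098, 0, 0.228 and 0 CPM in normoxia and 8.903, 9.22 and 8.77 CPM in hypoxia, a count ratio of 191 (92.2 to 477). Slc16a1 (MCT1) fell from 192, 195, 198 and 186 to 152, 149 and 163 CPM (-0.32; edgeR adjusted p = 5.67e-05), and the groups did not overlap. It still exceeded Slc16a3 per kilobase of exon in hypoxia, at 34.9 against 1.69 CPM. Bsg (basigin), the chaperone that carries both to the membrane, rose 5.91-fold from 373 ± 10.98 to 2205 ± 49.2 CPM. Of 10 carbonic anhydrases and pH regulators tested, 8 rose and 1, Slc16a1, fell. Car12, a second surface carbonic anhydrase, rose 3.801-fold and exceeded Car9 per kilobase in hypoxia (20.1 against 2.12 CPM). Car6, a secreted form, went from 0.134 ± 0.0736 to 1.62 ± 0.165 CPM.

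Most glycogen genes rose. Of 14 glycogen genes, 9 rose, 7 of them at least 2-fold, and 2 fell. Gys1, the synthase, went from 47.5, 47.7, 44.02 and 50.4 to 349, 347 and 354 CPM (7.38-fold), and Gbe1, the branching enzyme, rose 8.68-fold. The breakdown enzyme Pygl and the targeting subunits Ppp1r3b and Ppp1r3c appeared from near 0, as given above. They passed the filter on low counts only through the hypoxic libraries, so that a rise was the only call open to them. Gyg (glycogenin, the primer of the particle) and Pgm2 fell 1.62 and 1.14-fold, the latter not called without hypoxic replicate 2 (-0.17) or with all 28 libraries in one fit (-0.20). Pygm, the muscle phosphorylase, and the subunits Ppp1r3d and Ppp1r3e were not called.

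Respiratory genes moved down by small steps, with a few large exceptions. Of 25 genes of the pyruvate dehydrogenase complex and tricarboxylic acid cycle, 20 fell, 2 of them at least 2-fold, and 2 rose, with a median of -0.33. Pdhx, a structural subunit of the complex, fell from 21.6, 21.1, 22.4 and 22.6 to 10.1, 10.6 and 9.51 CPM, and Idh3a, a catalytic subunit of the cycle's NAD-linked isocitrate dehydrogenase, from 106, 113, 113 and 105 to 50.2, 48.4 and 52 CPM, both 2.17-fold. Mdh2 fell 1.597-fold. Pdk1, the kinase that switches pyruvate dehydrogenase off, rose 9.66-fold, from 50.99, 52.2, 54.3 and 48.6 to 490.1, 479 and 524 CPM, while Pdp1, the opposing phosphatase, rose 1.23-fold. Idh3b was the other gene of the group that rose, by 0.15, and was not called without normoxic replicate 1 (0.14) or hypoxic replicate 1 (0.11), nor with library size alone (0.08), no filter (0.11) or all 28 libraries in one fit (0.14). In that last fit Pdp1 was not called either (0.28).

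Of 75 nuclear-encoded subunits of oxidative phosphorylation, 46 fell and 3 rose, with a median of -0.24. Without normoxic replicate 4, 47 fell and 10 rose. Cycs, the soluble electron carrier cytochrome c, fell furthest, from 133, 133, 139 and 110.3 to 35.7, 34.8 and 34.6 CPM (3.68-fold), followed by Cyc1 of complex III (2.17-fold) and Atp5g1 of the ATP synthase (1.93-fold). Ndufv3, an accessory subunit of complex I, went against the group: it had 25.8, 25.02, 25.2 and 27.96 CPM in normoxia and 127, 129 and 139 CPM in hypoxia (5.08-fold higher). Ndufa6 and Ndufa7 rose by 0.54 and 0.13. The Ndufa7 call was lost without any 1 of normoxic replicates 1 to 3 or hypoxic replicates 1 and 2 (0.09 to 0.14), and also with library size alone (0.05), RLE size factors (0.12), no filter (0.09), DESeq2 (0.12) or all 28 libraries in one fit (0.11). Of 12 mitochondrially encoded protein genes, 4 rose and 2 fell, and their summed level was 4707 to 5780 CPM in normoxia and 7000 to 7688 CPM in hypoxia. A polyA protocol recovers these short-tailed transcripts unevenly, and its part in their level was not tested.

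Genes that remodel or remove mitochondria moved both ways. Bnip3l, the second HIF-driven mitophagy receptor, went from 143, 141, 144 and 161 to 756, 759.9 and 808 CPM (5.26-fold). Ndufa4l2, a subunit-like protein that lowers complex I activity in hypoxia, had 0 reads in 3 of 4 normoxic libraries and 1.48 ± 0.45 CPM in hypoxia, with a count ratio of 44.1 (18.3 to 138.5). All its normoxic reads were in replicate 4, and its fitted log2 change of 5.24 was 8.6 without that library, a value set by the prior count. Ppargc1b, a coactivator of mitochondrial biogenesis, fell from 4.31, 3.38, 3.49 and 3.34 to 0.929, 0.987 and 1.26 CPM. Nrf1 and Tfam, which drive the transcription of nuclear and mitochondrial respiratory genes, fell 1.45 and 1.29-fold. The fission and fusion genes Dnm1l, Fis1 and Opa1 were not called, nor was Mfn1, although Mfn1 was called lower without hypoxic replicate 3 (-0.15) and, with scaling by library size alone, Mfn1 (-0.18) and Fis1 (-0.17) both were.

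Most genes of blood vessel growth rose. Of 19 angiogenic genes tested, 12 rose, 8 of them at least 2-fold, and 1 fell (2 without normoxic replicate 4). Vegfa, the main endothelial growth factor, went from 71.2, 71.7, 73.2 and 71.3 to 347, 339.6 and 346 CPM (4.79-fold; edgeR adjusted p = 6.97e-14), and its relative Pgf from 2.82, 2.76, 3.91 and 5.37 to 55.8, 52.6 and 67.03 CPM (16.4-fold). Both were separated between groups. Nrp1, a co-receptor for Vegfa and semaphorins, fell 1.43-fold, and Kdr, the main Vegfa receptor, was too low to test. The 6 not called included Angpt1 and Thbs1, the latter called lower (-0.17) without normoxic replicate 4.

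Most genes of collagen-modifying enzymes rose. Of 18 collagen hydroxylases and lysyl oxidases, which need oxygen to act, 13 rose, 10 of them at least 2-fold, with a median of 1.15. P4ha2 and P4ha1, the catalytic subunits that stabilise the collagen helix, rose 16.7 and 5.51-fold, P4ha2 from 26.5, 26.02, 24.99 and 29.9 to 435, 442 and 466 CPM. Plod2, which hydroxylates lysine for crosslinks, rose 14.5-fold from 24.5 ± 0.772 to 355 ± 22.9 CPM. Lox, which forms those crosslinks, rose 11.2-fold, from 60.8, 61.1, 60.8 and 69.1 to 716, 698 and 696 CPM, whereas its relative Loxl1 fell 1.72-fold and P3h2, a prolyl 3-hydroxylase, 4.38-fold.

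Of 32 extracellular matrix genes tested, 27 rose, 9 of them at least 2-fold, and 1 fell, with a median of 0.64. The summed level of the list was 16165 to 16984 CPM in normoxic and 29291 to 30184 CPM in hypoxic libraries. Fn1 (fibronectin) had 2248, 2198, 2151 and 1942 against 5802, 5487 and 5541 CPM, and Col1a1 rose 1.76-fold from 1669 ± 64.5 to 2931 ± 167 CPM. By ratio, Lama4 (a laminin chain), Col5a3 and Col12a1 led with 7.86, 6.01 and 4.94-fold, Lama4 from 0.1799 ± 0.1196 CPM. Postn (periostin) was the gene that fell (-0.34; edgeR adjusted p = 0.0361), with 27.2, 25.9, 24.4 and 35.9 against 20.01, 21.4 and 25.5 CPM and overlapping groups. Its call was lost without normoxic replicate 1 (-0.36), hypoxic replicate 1 (-0.27) or hypoxic replicate 2 (-0.32). Col3a1, Col5a2, Col11a1 and Dcn were not called, although Col3a1 was (0.22) without normoxic replicate 4.

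Most chromatin enzymes that need oxygen as a substrate also rose. Of 22 oxygen-dependent demethylases tested, 18 rose, 9 at least 2-fold, and 2 fell, with a median of 0.74. The DNA hydroxylases Tet1 and Tet2 went from 5.73, 4.18, 3.42 and 4.97 to 24.5, 25.7 and 26.4 CPM and from 10.3, 9.68, 9.88 and 13.4 to 41.2, 43.98 and 43.1 CPM, 5.59 and 3.98-fold, and Tet3 was not called. Kdm4b and Kdm3a, histone H3 lysine 9 demethylases known as HIF targets, rose 4.63 and 3.86-fold. Riox1, a nucleolar member of the class, fell 2.42-fold, and Kdm2b 1.3-fold.

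**Figure D3:**
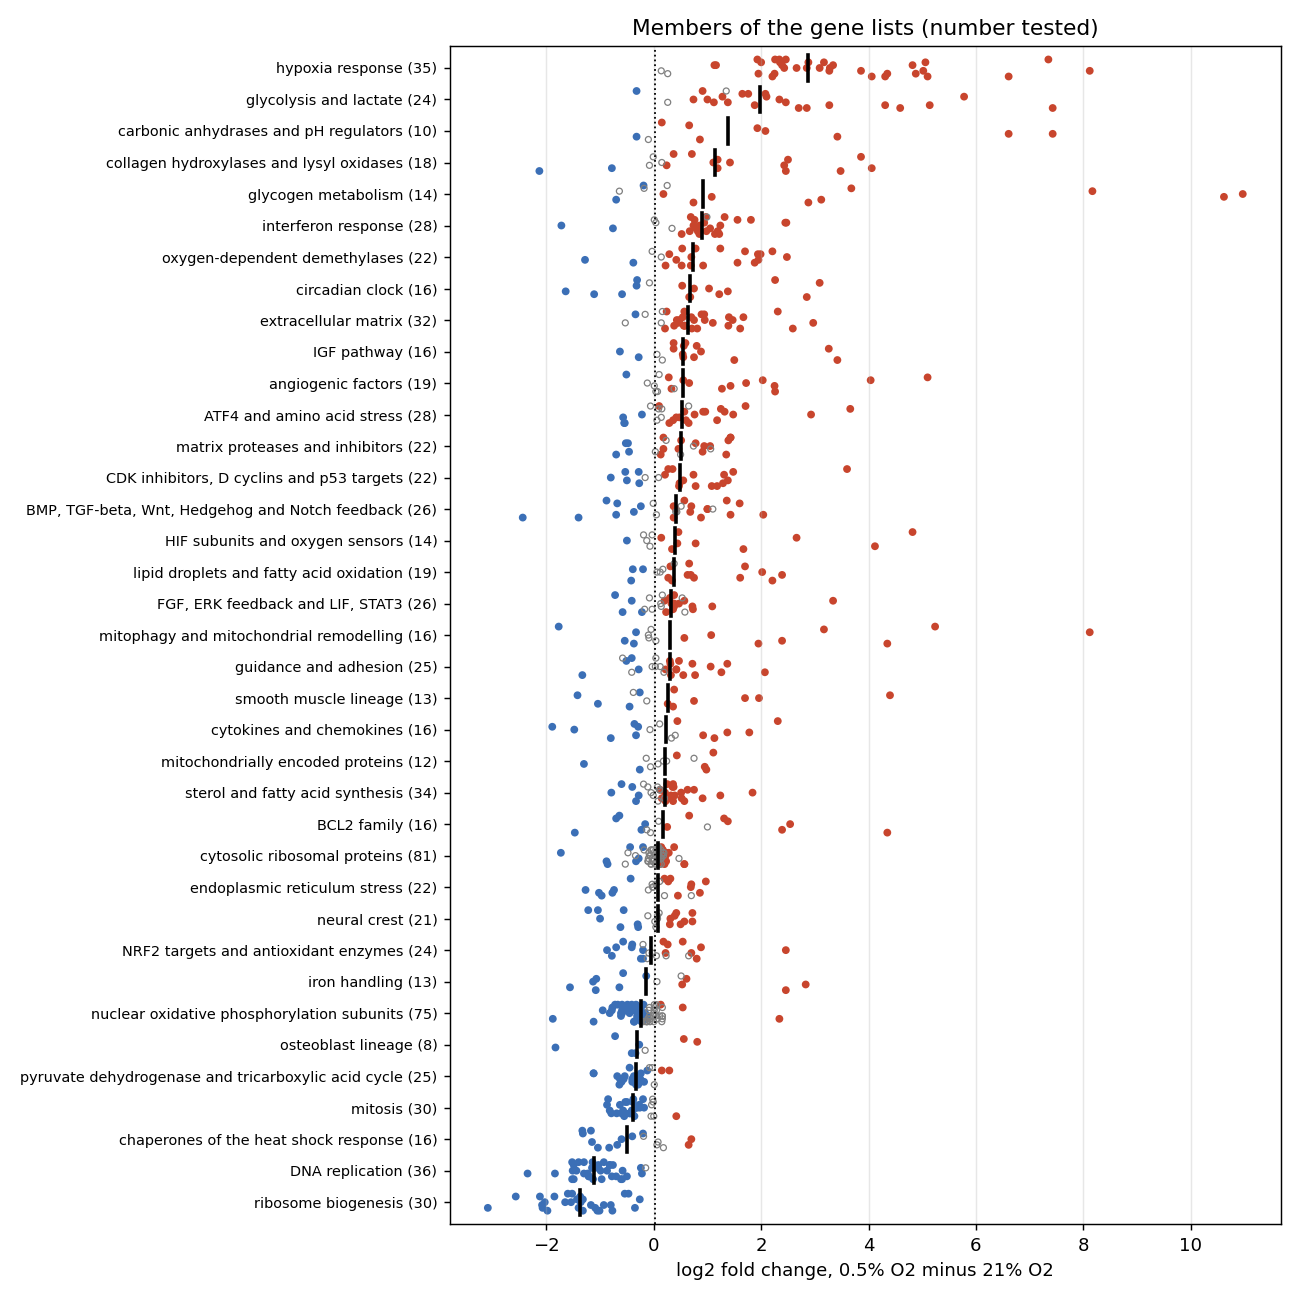
Log2 fold change at 0.5% against 21% O2 of the tested members of each gene list with at least 8 members tested; filled red and blue points were called higher and lower, open grey points were not called, the bar is the list's median and the dotted line the median of all genes. Hypoxia response, glycolysis and collagen hydroxylases lie to the right, and ribosome biogenesis and DNA replication to the left.

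The most uniform fall was in ribosome production. All 30 ribosome biogenesis genes fell, 23 of them at least 2-fold, with a median of -1.37 (32.3% of all genes tested fell). Their summed level was 8303 to 9722 CPM in normoxic and 4365 to 4465 CPM in hypoxic libraries, and normoxic replicate 4 was the lowest normoxic library for each of the 3 genes given next. Rrp12, needed to export and mature pre-ribosomes, fell from 91.6, 96.7, 96.1 and 66.6 to 12, 11.2 and 7.76 CPM (-3.09, SE 0.19; edgeR adjusted p = 2.03e-06). Ddx21, a nucleolar RNA helicase, fell from 492, 488, 499.8 and 379 to 84.5, 77.3 and 72.8 CPM (5.94-fold), and Bop1, a factor of the large subunit, 4.35-fold from 137, 138, 136 and 114 to 30.1, 31.2 and 29.4 CPM. Without replicate 4 the log2 changes of Rrp12 and Ddx21 were -3.22 and -2.67. Ncl (nucleolin), the most abundant nucleolar gene named, went from 2432 ± 168 to 1177 ± 26.2 CPM (2.07-fold lower).

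The ribosome's own proteins did not follow. Of 81 cytosolic ribosomal protein genes tested, 25 rose and 7 fell, 49 were not called, and the median was 0.08. Without normoxic replicate 4 these counts were 42 and 11, so that the number called depended on that library, and with scaling by library size alone 11 rose and 15 fell. In promoter windows of the ribosome biogenesis genes, CACGTG, the E-box that MYC and related factors bind, was found in 9 of 26 matched genes (34.6%), against 11.7% of tested genes, 17.6% of those called at least 2-fold lower and 8.09% of all genes. Genes with ACGTG but no CACGTG numbered 3 (11.5%, against 20.5% of tested and 15.3% of all genes). Myc itself was not called, at 225, 227, 228 and 181 against 219, 209.8 and 182 CPM, and was called lower (-0.17) without normoxic replicate 4.

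Other genes with the largest falls had varied functions. Srm, which makes spermidine, fell from 167, 173, 167 and 141 to 36.04, 35.4 and 26.2 CPM (4.98-fold), and Trmt61a, a tRNA methyltransferase, 6.26-fold. Taf4b, a subunit of the basal factor TFIID, fell 6.91-fold, and Dancr and Snhg4, long noncoding RNAs, fell by 2.69 and 2.41 on the log2 scale. Mars2 and Qrsl1, which serve mitochondrial translation, fell 5.27 and 5.21-fold. Tigar, a phosphatase that restrains glycolysis, fell 5.84-fold, from 12.3, 12.4, 12.5 and 10.2 to 2.59, 1.59 and 1.87 CPM. Among called genes without overlap and with at least 10 mean counts in both groups, the largest fall was in Tnfrsf21 (death receptor 6), from 8.89, 9.46, 7.18 and 6.92 to 0.697, 0.944 and 0.65 CPM (10.7-fold), and Adra2a, an adrenergic receptor, fell 5.72-fold. Among the 8 genes with the largest losses in CPM were Ncl, given above, and abundant housekeeping genes. Actb, Hspa8, Hspd1 and Hsp90ab1 went from 4068 ± 307, 2869 ± 93.9, 1361 ± 89.2 and 5617 ± 169.6 CPM to 2752 ± 206, 1891 ± 71.8, 544 ± 29.3 and 4887 ± 148 CPM.

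Most heat shock genes fell. Of 16 genes of the heat shock response, 10 fell, 5 of them at least 2-fold, and 2 rose. Hsph1, and the mitochondrial pair Hspd1 and Hspe1, fell 2.52, 2.501 and 2.26-fold. Hspb1 and Hspa1a, both under 10 CPM, rose by 0.70 and 0.65. The Hspb1 call was lost without any 1 of normoxic replicates 1 and 2 or hypoxic replicates 1 and 2 (0.60 to 0.65), and neither gene was called with all 28 libraries in one fit (0.69 and 0.63).

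Most genes of DNA replication and mitosis fell. Of 36 replication genes, 35 fell, 20 of them at least 2-fold, with a median of -1.11, and E2f1 was the only one not called (63.97, 62.7, 62.8 and 53.6 against 53.4, 56.8 and 54.2 CPM), and it was called lower (-0.22) without normoxic replicate 4. Ccne1 (cyclin E1), which starts S phase, fell from 31.3, 31.8, 33.2 and 27.8 to 5.81, 7.72 and 4.71 CPM (-2.35, SE 0.14; edgeR adjusted p = 6.93e-09). Rrm2, which makes deoxynucleotides, fell from 185, 189, 186 and 158 to 53.7, 51.5 and 45.1 CPM (3.59-fold), and Mcm2, part of the replicative helicase, from 258, 249.6, 265 and 232 to 90.5, 92.3 and 79.6 CPM (2.87-fold). Of 30 mitosis genes, 24 fell, none of them 2-fold, with a median of -0.39. Plk1, Nuf2 and Ccnb1, which act at the spindle, kinetochore and mitotic entry, fell 1.82, 1.81 and 1.77-fold. Cenpf rose 1.34-fold. Mki67, the common marker of dividing cells, was not called, at 440.1, 396, 446 and 327 against 378, 388 and 405 CPM, with overlapping groups, and was called lower (-0.15) without normoxic replicate 4.

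Brakes on the cell cycle rose in part. Of 22 CDK inhibitors, D cyclins and p53 targets tested, 15 rose and 5 fell. Ccng2, a cyclin that restrains division, went from 12.9, 15.4, 14.3 and 23.04 to 188, 188 and 213 CPM (12.1-fold), and the CDK inhibitors Cdkn1a (p21) and Cdkn1b (p27) rose 2.26 and 2.44-fold. Gadd45a and Bbc3, both p53 targets, rose 2.79 and 2.61-fold, while Trp53 itself fell 1.74-fold, from 252, 253, 257 and 255 to 155, 150.1 and 133 CPM. Ccnd1 and Cdk6, which drive G1, fell 1.44 and 1.42-fold. Among 16 BCL2 family genes, 7 rose and 5 fell (3 without hypoxic replicate 2). Bmf rose 5.81-fold from 0.538 ± 0.382 CPM, and the death effectors Bid, Bak1 and Bok fell 2.77, 1.62 and 1.56-fold.

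**Figure D4:**
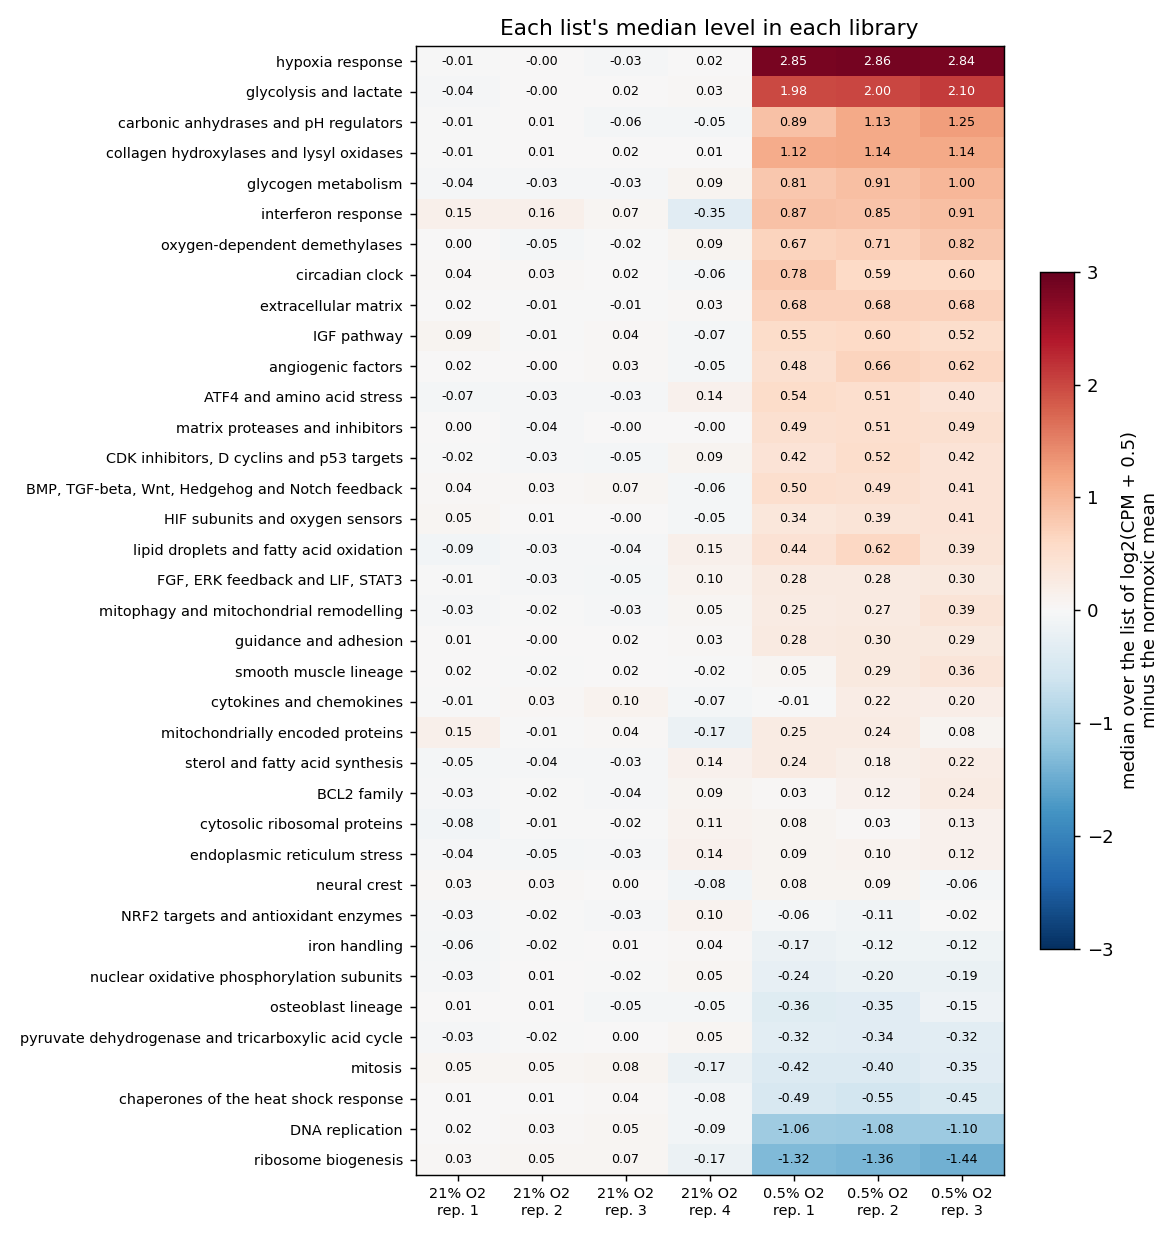
Median of each list's log2(CPM + 0.5) in each library, as a difference from the normoxic mean, for the 7 proliferating libraries; colour gives the difference on the log2 scale. The 3 hypoxic libraries lie close together for hypoxia response (2.84 to 2.86) and less so for carbonic anhydrases and pH regulators (0.89 to 1.25). Normoxic replicate 4 lies lower than the other normoxic libraries for interferon response (-0.35), ribosome biogenesis (-0.17) and mitosis (-0.17).

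Stress pathways split. Of 28 genes of the ATF4 and amino acid stress response, 18 rose, 7 at least 2-fold, and 4 fell. Vldlr, a lipoprotein receptor that HIF also induces, rose 12.7-fold, and Trib3, a pseudokinase of that response, went from 7.37, 9.15, 7.98 and 17.7 to 76.5, 74.2 and 85.6 CPM. The 3 largest falls were Shmt2, Slc7a5 and Phgdh, which serve serine and glycine synthesis and amino acid import, by 1.49, 1.47 and 1.46-fold. Of 22 endoplasmic reticulum stress genes, 8 rose, none 2-fold, and 6 fell. Hyou1, a chaperone named for induction by oxygen lack, fell from 133, 137, 142 and 149 to 60.97, 58.1 and 55.3 CPM (2.41-fold), and Dnajb11 2.03-fold, whereas Hsp90b1 rose 1.82-fold. Of 24 NRF2 targets and antioxidant enzymes, 8 rose and 9 fell. The counts of this list and of the endoplasmic reticulum list were near the shares of all genes tested (33.1% rose and 32.3% fell). Hmox1, which breaks down haem, was the only NRF2 target or antioxidant enzyme to rise 2-fold, from 24.9, 22.9, 24.3 and 27.8 to 131, 134 and 146 CPM, and the mitochondrial enzymes Sod2 and Prdx3 fell 1.82 and 1.72-fold.

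Iron genes moved both ways. Of 13 iron genes tested, 7 fell, 4 of them at least 2-fold, and 4 rose. Slc11a2 (DMT1), the iron importer of the gut and endosome, fell from 35.9, 34.3, 35.9 and 33.9 to 11.8, 12.6 and 11.3 CPM, and Tfrc, the transferrin receptor, from 188, 187, 187 and 141 to 87.4, 81.6 and 80.4 CPM. The exporter Slc40a1 rose 7.11-fold from 0.2004 ± 0.168 CPM, and Ftl1, a ferritin chain, 1.53-fold.

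Most sterol and fatty acid synthesis genes rose, by small steps. Of 34 sterol and fatty acid synthesis genes, 20 rose and 5 fell, with a median of 0.21. Scd2 and Scd1, desaturases that consume oxygen, rose 2.37 and 1.88-fold, Scd2 from 2124, 2047, 2160.2 and 2341 to 5119, 5092 and 5179.6 CPM. Insig2, which restrains sterol synthesis, rose 3.59-fold. Elovl6, Acaca and Fasn, of the fatty acid synthesis route, fell 1.73, 1.51 and 1.32-fold. Hilpda, the hypoxia-induced inhibitor of lipid droplet breakdown, rose 4.64-fold, from 14.7, 14.8, 13.4 and 12.6 to 61.9, 63.5 and 68.7 CPM, among 19 lipid droplet and fatty acid oxidation genes of which 12 rose and 3 fell. Fabp4 and Plin4 rose 5.24 and 4.06-fold but stayed under 4 CPM.

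Interferon-response genes were higher in hypoxia. Of 28 tested, 22 rose, 10 at least 2-fold, and 2 fell, with a median of 0.89, and the summed level went from 673 to 906 CPM up to 1488 to 1502 CPM. H2-K1, a class I histocompatibility gene, went from 22.3, 20.7, 21.5 and 22.2 to 115, 124 and 121 CPM (5.54-fold), Mx2, an antiviral GTPase, from 2.23, 2.14, 0.9496 and 1.14 to 9.097, 7.94 and 10.4 CPM, and Irf7 from 10.3, 11.6, 10.98 and 3.501 to 33.1, 32.8 and 31.2 CPM. The normoxic libraries differed among themselves, replicate 4 being low for Irf7. Without it the list's median was 0.75, and 24 rose. Cxcl10 and Ifit2 fell 3.303 and 1.69-fold.

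Clock repressors moved both ways. Of 16 circadian genes tested, 10 rose, 6 at least 2-fold, and 5 fell. The repressors Bhlhe40 and Bhlhe41, of which the former is a HIF target, rose 8.49 and 4.79-fold, Bhlhe40 from 29.9, 28.5, 29.02 and 31.2 to 250.3, 248 and 256 CPM, and Ciart, another repressor, 7.21-fold. The repressors Nr1d1 and Nr1d2 fell 2.17 and 3.12-fold and Clock 1.501-fold.

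Growth factor pathways gave mixed counts. In the IGF pathway 12 of 16 rose, led by the noncoding RNA H19 (3.53, 3.29, 3.84 and 2.56 against 34.3, 35.2 and 36.8 CPM) and the IGF binding protein Igfbp3 (13.6, 16.5, 15.4 and 16.6 against 142, 147 and 158 CPM), 10.7 and 9.59-fold. Of 26 FGF, ERK feedback and LIF pathway genes, 14 rose and 4 fell. Ier3, an early response gene, rose 10.1-fold and Socs3, the feedback inhibitor of LIF signalling, 1.66-fold, while Egr1, Spry4 and Etv4, targets of FGF and ERK signalling, fell 1.65, 1.497 and 1.33-fold. With all 28 libraries in one fit none of those 3 was called (edgeR adjusted p = 0.12, 0.0552 and 0.17), and the list had 8 rises and 0 falls. Of 26 feedback genes of the BMP, TGF-beta, Wnt, Hedgehog and Notch pathways, 13 rose and 7 fell. Id2 and Smad7 rose 4.13 and 3.04-fold, and Tcf7, a Wnt target, and Bambi, a BMP pseudoreceptor, fell 2.64 and 1.84-fold. In the fit of 28 libraries 3 of the list fell, and Bambi was not called (-0.90). Gli1, the Hedgehog target, had 0.372, 0.5603, 0.532 and 0.692 against 0, 0.172 and 0.122 CPM, and was under 1 CPM in every library.

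Among secreted and surface factors, 6 of 16 cytokines and chemokines rose and 6 fell, near the shares of all genes tested (33.1 and 32.3%). Cxcl12, a chemoattractant of migrating crest and blood cells, rose 4.97-fold, and normoxic replicate 4 was far below the other 3 (52.97, 53.2, 51.4 and 19.5 against 229, 223 and 214 CPM). Lif rose 2.59-fold, and Ccl7 and Ccl2 fell 3.72 and 2.79-fold. Of 25 guidance and adhesion genes, 14 rose and 4 fell. Plxnd1, a semaphorin receptor, rose 2.58-fold. Of 22 matrix proteases and inhibitors, 13 rose and 4 fell (2 without hypoxic replicate 2), with Adamts1 and Plat rising 2.69 and 2.62-fold.

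Neural crest markers moved both ways, in shares near those of all genes. Of the 21 neural crest genes tested, 8 rose, none 2-fold, and 7 fell (33.1% of all genes tested rose and 32.3% fell). Their median was 0.07, against 0.01 over all genes, and -0.02 without normoxic replicate 4. With all 28 libraries in one fit 4 rose. Snai1, Sox9 and Cd44 rose 1.65, 1.64 and 1.49-fold, Sox9 without a call in that fit (0.70), and Msx1, Nr2f1 and Foxc1 fell 2.33, 2.06 and 2.004-fold, Nr2f1 from 176, 171, 163 and 155 to 80.98, 83.97 and 77.5 CPM. Of 20 osteoblast markers, 8 were tested and 5 of those fell, or 3 without hypoxic replicate 1 or 2. Runx2, a transcription factor of bone, fell 1.33-fold, while Col1a1 rose. Of 20 chondrocyte markers, 5 were tested and 3 rose, with a median of 0.72, Acan (aggrecan) 3.004-fold, and Col2a1 was too low to test. Of 11 adipocyte markers, 4 were tested and 3 rose, Fabp4 among them, with a median of 1.07. Notch3, a receptor of mural cells counted here among 13 smooth muscle genes tested (7 rose, 4 fell), went from 2.11, 1.54, 1.102 and 3.74 to 42.9, 42.8 and 43.02 CPM, while Acta2, a defining gene of that lineage, fell 1.37-fold.

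Markers of other cell types were sparse. None of 7 pluripotency genes was tested, and their summed level was at most 0.0407 CPM in any of the 7 libraries. Of 8 epithelial markers 3 were tested: Krt19 rose as given above, Krt18 was at 0.257 ± 0.0467 and 0.542 ± 0.09504 CPM, a call that was lost without any 1 library other than normoxic replicate 4 (0.94 to 1.18), and Epcam was not called. Their summed level of 4.88 to 6.55 CPM in normoxia and 341 to 352 CPM in hypoxia was nearly all Krt19. Of 10 glial and neuronal markers 5 were tested and 4 rose, from a summed 5.54 to 11.7 CPM to 23.4 to 25.0 CPM, S100b and Erbb3 staying under 6 CPM, and Sox10 was at 0. Of 8 blood markers 3 were tested and 1 rose (2 without hypoxic replicate 3): Cd68, a lysosomal protein of macrophages, from 2.32 ± 0.5496 to 6.15 ± 0.229 CPM (2.67-fold). Pecam1, an adhesion protein of vessel walls and the only one of 7 endothelial markers tested, rose from 0.438 ± 0.196 to 1.06 ± 0.251 CPM (2.55-fold), but was not called without hypoxic replicate 1 (1.15) or with all 28 libraries in one fit (1.34). Mitf, the melanocyte factor, fell 2.66-fold. The part of other cells in these results was not tested.

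The same change of oxygen was then compared with that in the differentiated cultures, by a test of the difference of the responses (edgeR interaction term in fits of 14 libraries each). The cultures differ in medium, serum and time, so that the state of the cells and those conditions cannot be told apart. Against chondrocyte cultures the response of 6654 of 15310 genes (43.5%) differed, and against osteoblast cultures that of 8394 of 15486 (54.2%). In chondrocyte cultures 1815 genes (11.9%) rose and 2138 (14%) fell at low oxygen, and in osteoblast cultures 4640 (30%) and 4375 (28.3%). Of the 1647 genes that rose at least 2-fold in proliferating cells, 224 also did so in chondrocyte cultures (13.6% of the 1647 and 54.5% of the 411 that did so there) and 492 in osteoblast cultures (29.9%, and 28.3% of the 1739 there). At any size, called rises of the same 1647 genes numbered 487 (29.6%) in chondrocyte and 700 (42.5%) in osteoblast cultures, and called falls 129 (7.83%) and 313 (19%). Of the 981 that fell at least 2-fold, 65 also did so in chondrocyte cultures (6.63%, and 10.4% of the 628 there) and 174 in osteoblast cultures (17.7%, and 9.51% of the 1829 there). At any size, called falls of the 981 numbered 320 (32.6%) in chondrocyte and 410 (41.8%) in osteoblast cultures, and called rises 12 (1.22%) and 154 (15.7%). The shares of 54.5 and 28.3% for rises, and 10.4 and 9.51% for falls, stand beside 11.6 and 6.93% of all genes tested in proliferating cells. The comparisons with chondrocyte and osteoblast cultures share the proliferating libraries and are not independent.

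Hypoxia response genes had a smaller rise in chondrocyte than in proliferating cultures. Their median log2 change was 2.87 in proliferating cells, 1.17 in chondrocyte cultures and 2.90 in osteoblast cultures. The difference from chondrocyte cultures was called for 32 of 35 genes, each with the larger rise in proliferating cells, and that from osteoblast cultures for 13 in that direction and 6 in the other. Over all genes it was called for 43.5% against chondrocyte and 54.2% against osteoblast cultures, and the count against osteoblast cultures is near that share. Mgarp changed by 8.10 in proliferating and 2.16 in chondrocyte cultures, a difference of 5.95 (SE 0.35; edgeR adjusted p = 1.62e-08). Bnip3 changed by 4.33 in proliferating and 1.59 in chondrocyte cultures, and by 4.33 and 4.32 in proliferating and osteoblast cultures. Its difference from osteoblast cultures was 0.00 (SE 0.11). Hk2 and Vegfa rose more in osteoblast than in proliferating cultures, with differences of -2.27 and -0.66.

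Ribosome biogenesis genes responded differently in both differentiated cultures, and replication and mitosis genes in osteoblast cultures. Ribosome biogenesis genes had medians of -1.39 in proliferating, -0.19 in chondrocyte and 0.24 in osteoblast cultures, and the difference was called in the same direction for 30 of 30 genes against chondrocyte and 29 of 30 against osteoblast cultures. Ddx21 changed by -2.59, -0.54 and -0.71, respectively. DNA replication genes had medians of -1.13, -0.69 and 0.29, and mitosis genes of -0.41, -0.76 and 2.51, with the difference from osteoblast cultures called for 32 of 36 and 30 of 30 genes. Against chondrocyte cultures it was called for 15 replication genes as more negative and 1 as more positive in proliferating cells, near the 43.5% of all genes, and for 6 mitosis genes, all more positive. Ccnb1 thus fell by 0.84 in proliferating cells and rose by 3.34 in osteoblast cultures. Sterol synthesis genes had medians of 0.20, -0.57 and -1.38, with differences called for 27 and 34 of 34 genes, all positive, and interferon genes medians of 0.88, -0.26 and -0.55.

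**Figure D5:**
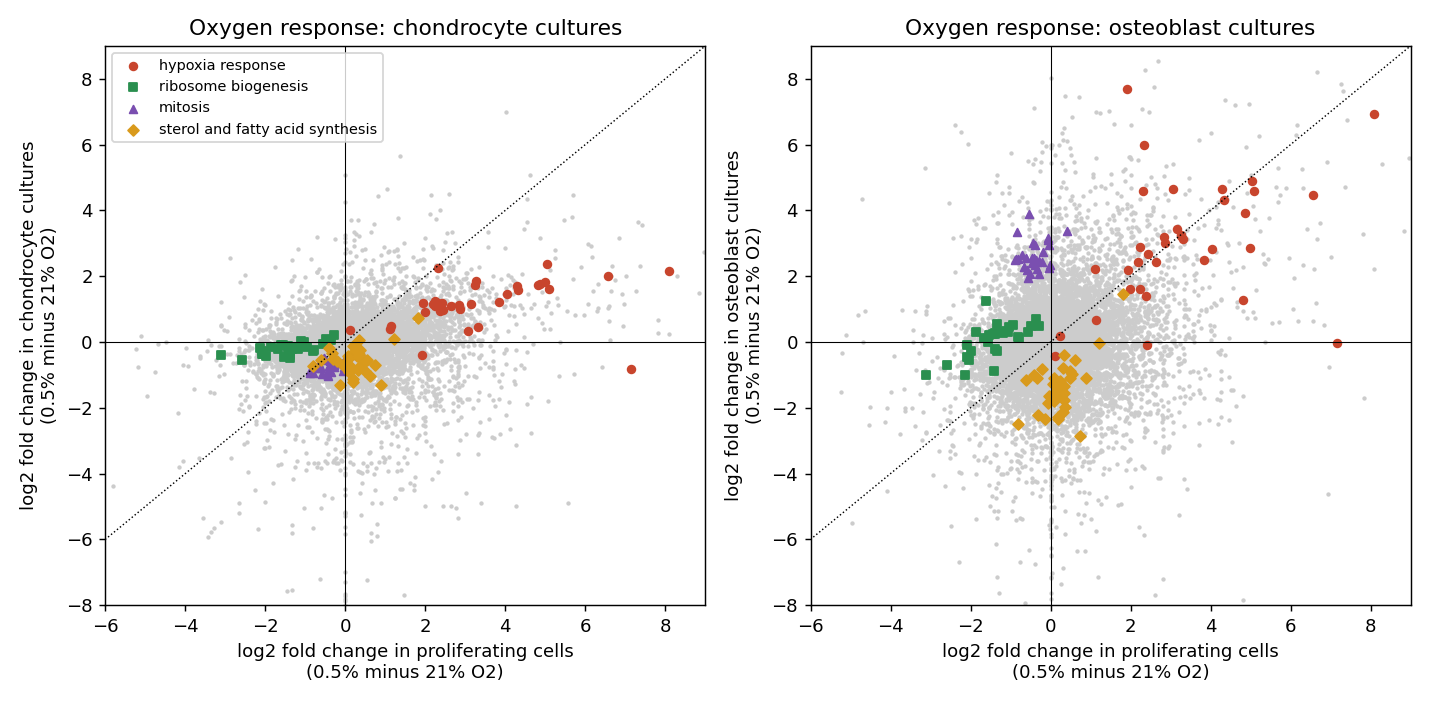
Log2 fold change at low oxygen in proliferating cells (horizontal) against chondrocyte cultures (left) and osteoblast cultures (right), each point 1 gene, with the members of 4 lists coloured. The median hypoxia response gene changed by 2.87 in proliferating, 1.17 in chondrocyte and 2.90 in osteoblast cultures, and ribosome biogenesis genes lie left of 0 on the horizontal axis.

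Single genes differed by more. H19 rose by 3.40 in proliferating cells and fell by 4.88 in chondrocyte cultures, the largest positive difference among the genes named (8.28; edgeR adjusted p = 1.69e-10). With CPM scaled over the 14 libraries of that fit, which differ somewhat from those scaled over 7, its levels were 2.97 ± 0.505 CPM in normoxic and 31.5 ± 1.16 CPM in hypoxic proliferating cells (mean ± SD, n = 4 and 3), and 820.4 ± 90.7 and 27.7 ± 8.34 CPM in normoxic and hypoxic chondrocyte cultures. Igfbp3 and Tnc, an extracellular matrix protein of tendon and healing tissue, rose by 3.24 and 1.65 in proliferating cells and fell by 1.67 and 3.03 in osteoblast cultures. Notch3 rose by 4.38 in proliferating cells and was not called in chondrocyte cultures (-0.69), with a difference of 5.07. Among negative differences, Tnfrsf21 fell by 3.44 in proliferating cells and was not called in chondrocyte cultures (0.05). Fosl1, a subunit of the factor AP-1, had the largest negative difference from osteoblast cultures among the genes named (-6.17). On the scale of its 14-library fit, Fosl1 was at 255 ± 18.99 CPM in normoxic and 324 ± 13.5 CPM in hypoxic proliferating cells (mean ± SD, n = 4 and 3), and 0.761 ± 0.644 and 71.9 ± 11.4 CPM in normoxic and hypoxic osteoblast cultures. It rose in osteoblast cultures (6.52) and was not called in proliferating cells in that fit (0.34), whereas in the fit of the 7 proliferating libraries it rose by 0.36.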

How the data were processed

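RNA of O9-1 cells was sequenced after polyA selection with a stranded kit. Per the submitters' processing notes the authors used HISAT2 2.0.5, StringTie 1.3.3b and featureCounts 1.5.0-p3 with mm10. The strand setting and annotation of the counting are not given in the sources used here. The deposited table holds raw read counts per gene for 28 libraries, made by the authors, and only these counts entered the tests. Its 70 per-sample normalised columns were not used. The authors' deposited comparison table gives log2 fold changes and p-values, used only for the comparison of signs.

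Counts of 7 libraries were filtered (filterByExpr, 10 counts), scaled by TMM and tested across all genes with edgeR 4.0.16 (quasi-likelihood, robust; R 4.3.3) with Benjamini-Hochberg adjustment at 0.05. CPM are counts per 1000000 of the scaled library size, and per-kilobase levels divide them by the union of exons. Ratios of genes with at most 8 reads over a group carry 95% exact intervals, or, at 0 reads, are bounds against 3 reads, for counting error only. Interaction terms were fitted on 14 libraries. Alternatives included limma 3.58.1 and DESeq2 1.42.0. Scripts were tested on simulated data. Replicate numbers were checked for pairing and did not pair the libraries.

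The genes named are, among called genes without overlap and with at least 10 mean counts in both groups, the 15 largest rises and 15 largest falls. Added are the 5 most abundant of those nearly silent in 1 group, the 8 largest gains and losses in CPM, 3 rises and 3 falls per list, the 8 largest interaction terms per direction, and Car9, Bnip3 and Mgarp. Names outside this rule (Hif1a, Arnt, Vhl, Slc2a1, Hk1, Hk2, Pdk1, Gys1, Gbe1, P4ha1, Kdm3a, Cdkn1a, Cdkn1b, Myc, Car12, Col1a1 and members given as examples) were chosen after their values were seen. Some genes that the rule selects are not reported here. The comparison and the gene lists were chosen with earlier results of these data known. Promoters were RefSeq entries of GRCm38.p6.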

Additional observations from a re-analysis of the deposited data

Results flagged for a closer look

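Of the 218 genes named that were tested, 40 had 1 normoxic library whose CPM lay far from the other 3 (Dixon's criterion at 95%), and in 36 of them it was normoxic replicate 4. Chance gives about 1 in 20 for groups of 4. That rate does not hold for Ndufa4l2, Ppp1r3c and Pygl, which had reads in 1 normoxic library only and are flagged whatever the value. The 3 hypoxic libraries were too few for the same look.

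Above the other 3 normoxic libraries, replicate 4 had a CPM of 6.55 for Adra2a (others 3.27 to 3.66), 8.67 for Aldoc (others 3.53 to 4.18), 81.1 for Arnt2 (others 51.8 to 53), 161 for Bnip3l (others 141 to 144) and 31.7 for Ccl2 (others 16.7 to 17.2). It also had the higher value of 209.7 for Cdkn1a (others 165 to 169.7), 65 for Cdkn1b (others 55.5 to 56.2), 7.897 for Col11a1 (others 2.04 to 2.66), 43.8 for Col12a1 (others 26.1 to 28.1) and 712 for Col3a1 (others 554 to 563). Further high values in replicate 4 were 145 for Hk1 (others 104 to 109), 69.1 for Lox (others 60.8 to 61.1), 64.7 for Ndrg1 (others 37.4 to 38.3), 0.204 for Ndufa4l2 (others 0 each) and 70.5 for Plat (others 41.1 to 43.3). Other levels raised in that library were 16.4 for Plxnd1 (others 10.6 to 11.1), 0.0407 for Ppp1r3c (others 0 each), 0.5699 for Prelid2 (others 0.186 to 0.228) and 139 for Sox9 (others 96.03 to 102).

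Below the other 3, replicate 4 had a CPM of 114 for Bop1 (others 136 to 138), 184 for Ccnb1 (others 218 to 222), 1248 for Ccnd1 (others 1382 to 1398), 369.8 for Col5a2 (others 503 to 517) and 19.5 for Cxcl12 (others 51.4 to 53.2). It also had the lower value of 379 for Ddx21 (others 488 to 499.8), 53.6 for E2f1 (others 62.7 to 63.97), 1.91 for Id2 (others 3.22 to 3.42), 3.501 for Irf7 (others 10.3 to 11.6) and 19.9 for Mars2 (others 28.2 to 29.4). Further low values in replicate 4 were 181 for Myc (others 225 to 228), 62.3 for Nr1d2 (others 74.7 to 77.3), 158 for Rrm2 (others 185 to 189), 66.6 for Rrp12 (others 91.6 to 96.7) and 15.2 for Smad7 (others 24.4 to 25.9). Other levels reduced in that library were 141 for Tfrc (others 187 to 188) and 10.2 for Tigar (others 12.3 to 12.5).

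In the other normoxic libraries, replicate 2 had 3.301 for Col5a3 (others 4.52 to 4.71), replicate 1 had 4.31 for Ppargc1b (others 3.34 to 3.49), replicate 2 had 0.0151 for Pygl (others 0 each) and replicate 3 had 0.228 for Slc16a3 (others 0 to 0.03098) CPM. Where leaving out replicate 4 ended or made the call of a gene named, its log2 change without it is given above. The cause of replicate 4's difference was not tested.

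The genes whose oxygen response differed most from that of chondrocyte cultures, by edgeR's interaction term, had differences in log2 fold change (proliferating minus chondrocyte) of 8.28 for H19, 5.95 for Mgarp, 5.82 for Itm2a, 5.72 for Smtnl2, 5.28 for Vwa1, 5.24 for Pi15, 5.07 for Notch3 and 4.98 for Col11a2. On the negative side they were -3.91 for Notum, -3.49 for Tnfrsf21, -3.39 for Glipr1, -3.07 for Adra2a, -2.89 for S100a7a, -2.74 for Dusp9, -2.71 for Rrp12 and -2.46 for Cdh24. Against osteoblast cultures, the positive differences were 5.16 for Tmem229b, 4.94 for Il17rd, 4.91 for Igfbp3, 4.76 for Notch3, 4.69 for Pde4b, 4.68 for Tnc, 4.67 for Rnf128 and 4.67 for Serpine2, and the negative ones -6.17 for Fosl1, -5.94 for Aqp5, -5.68 for Sorbs2, -5.48 for Ly6a, -5.35 for Slc6a4, -5.25 for Prl2c2, -5.16 for Msln and -5.13 for Notum. For a negative difference the response was lower in proliferating cells, through a fall there, a rise in the other culture, or both. These genes were chosen for the size of the difference.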

How the results depend on the processing

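The numbers of genes called stayed within 1.5 times the reported ones, with their direction, under every alternative run: scaling by library size alone or by RLE size factors, no filter on low counts, at least 10 counts in every library, limma-voom, DESeq2, all 28 libraries in one fit, and leaving out each library. Calls ranged from 8578 to 9945 when 1 library was left out and from 8020 (all 28 libraries) to 9548 (no filter) otherwise. Replicate numbers did not pair the samples (correlations of deviations -0.00127, 0.0347 and 0.00746). With the replicate block on replicates 1 to 3, 10027 genes were called, against 9945 for the same libraries without the pairing. Scaling by library size alone moved the median of all genes to -0.06 and the share of higher calls from 50.6% to 44.7%. Some genes that were not called had signs that changed with the setting, and the cause was not tested. Dnm1l was -0.03 with library size alone, and Col11a1 0.18 under limma-voom, 0.45 on replicates 1 to 3 with or without the replicate block, and -0.36 to 0.45 when 1 library was left out. On leaving out 1 library, Egln2 ranged from -0.08 to 0.04, Epcam from -0.47 to 0.57, Mki67 from -0.15 to 0.01 and Ppp1r3d from -0.52 to 0.10. Of the 218 genes named that were tested, 186 kept their direction and their side of the threshold in every setting. With all 28 libraries in one fit, the calls of Bambi, Egr1, Etv4, Fosl1, Hspa1a, Hspb1, Idh3b, Krt18, Ndufa7, Pdp1, Pecam1, Pgm2, Sox9 and Spry4 were lost (edgeR adjusted p of 0.0514 for Pgm2 to 0.351 for Ndufa7). Of the counts of list members called, 1392 of the values under other settings lay within 1.5 times the reported ones and 80 did not. Of the interaction genes given, 31 of 32 kept their call in every setting, and Col11a2 lost it under limma-voom (adjusted p = 0.314) and without hypoxic replicate 1 (0.0717) or 3 (0.0702). The 3 hypoxic libraries and genes under about 1 CPM set the limits of precision.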

Other observations

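The oxygen responses of the cultures were also compared for 2 further lists. The 34 extracellular matrix genes tested had a median log2 change of 0.56 in proliferating, -0.26 in chondrocyte and -0.05 in osteoblast cultures, and the difference (edgeR interaction term) was called as more positive in proliferating cells for 27 genes against chondrocyte and 17 against osteoblast cultures, and as more negative for 1 and 4. Over all genes the difference was called for 43.5% against chondrocyte and 54.2% against osteoblast cultures. The 81 cytosolic ribosomal protein genes had medians of 0.06, 0.11 and 0.78, respectively. Against osteoblast cultures the difference in response was called as more negative in proliferating cells for 74, and 76 were called higher at low oxygen in osteoblast cultures. Against chondrocyte cultures it was called for 2 as more positive and 9 as more negative.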
